A study of Mus musculus with 12 samples.

Results

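The comparison set the change from day 4 to day 8 in mouse embryonic fibroblasts that received SKO against the same change in fibroblasts that did not. For each of 3 viruses it was formed as day 8 minus day 4 with SKO, minus day 8 minus day 4 without SKO. Each virus used 4 arrays, and all 12 arrays of the series entered. SKO stands for the reprogramming factors Sox2, Klf4 and Oct4, and the labels give the letters alone. The fibroblasts (MEFs) came from a cross of OG2 mice, which carry a green fluorescent reporter under Oct4 regulatory DNA, with 129/sv mice. In both arms the cells were infected with retrovirus carrying microRNA cluster B, microRNA cluster C or no cluster (blank control). They were then kept in mESC medium, the medium of mouse embryonic stem cells, and the day of the first infection was day 0. The labels tag the arm without SKO as Group2, so tag and arm cannot be told apart. Each combination of arm, virus and day was 1 array. Feeder cells were removed before the RNA was extracted. The sources used here do not say whether the arms were infected side by side, how many embryos were pooled or how old they were. All 12 arrays carry 1 identical description that names a pre-iPSC line and another day, so the groups were read from the titles.

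Oct4, Sox2 and Klf4 are transcription factors that can turn fibroblasts into pluripotent stem cells. An early step on that path is a mesenchymal-to-epithelial transition, in which spindle-shaped, matrix-producing cells take on cell-to-cell junctions, E-cadherin and keratins. The pluripotency network is switched on later and in few of the cells. Fibroblasts that are not reprogrammed keep making collagens, proteoglycans and growth factors of connective tissue.

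Values are log2 intensities, and a difference of 1 on this scale is a doubling. Array medians lay between 4.98 and 5.07 and lower quartiles between 3.48 and 3.68, so values near or below the quartile sit at the dim end of the array. Pou5f1, which encodes Oct4, read at least 11.60 on the 6 arrays with SKO and 3.35 to 4.56 on the 6 without, so every array matched its label for the arm. This says nothing of the virus or the day of an array. The difference between the arms was tested with limma in 1 fit to all arrays, in which the 3 viruses of an arm served as the replicates of its day change (n = 3 per arm). Its p-values rest on the spread between viruses, with the variance of each gene drawn toward a value shared by all genes. This shared value carried 4.94 degrees of freedom beside the 4 of each gene, so standard errors are not the gene's own spread alone. Nothing in the labels says that the cultures were separate experiments. An exact permutation test of 3 day changes against 3 cannot go below p = 0.10. A gene passed if its p, adjusted by Benjamini-Hochberg over 19938 genes, was under 0.05. In RNA of whole cultures, fewer cells of a type and less RNA per cell cannot be told apart.

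Of 19938 genes, 592 (2.97%) changed differently with SKO than without. The difference was positive (a day change higher with SKO) for 392 genes, 1.97% of those tested, and negative for 200 genes, 1.0%. At an unadjusted p under 0.05, 3459 genes passed. The median difference was 0.96 among the positive genes and -0.96 among the negative ones, and the smallest sizes that passed were 0.60 and 0.62. All 592 genes had 1 sign for all 3 viruses and day changes that did not overlap between the arms. The test that picked them used these same day changes, so both traits come largely with the selection and add no support. Over all genes, 38.4% had 1 sign for the 3 viruses and 23.8% did not overlap, and the median difference was -0.02. Without any 1 of the 12 arrays, 138 to 200 positive and 92 to 115 negative genes passed. Every array lowered both counts, and the lowest positive count, 138, came without either array of cluster C without SKO. The day 4 and day 8 array of 1 virus in 1 arm form a pair, and leaving out either array of a pair gave the same fit. With each array left out in turn, 108 of the 392 positive and 63 of the 200 negative genes passed in all 12 fits. None of the 592 changed sign. The same 3 viruses were used in both arms, and a second fit with a virus by day term, called the paired fit here, sets the arms against each other within each virus. It called 155 positive and 81 negative genes, of which 150 and 80 were among the 392 and 200. Where a gene named below lost its call in the paired fit, that adjusted p is given beside it.

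With SKO, 1045 genes (5.24%) rose from day 4 to day 8 and 730 (3.66%) fell. Without SKO, 807 genes (4.05%) rose and 923 (4.63%) fell. With equal array medians in place of the deposited scaling, 862 rose and 1126 fell with SKO, and 697 rose and 1204 fell without. Leaving out either array of a pair with SKO lowered the counts with SKO, to 467 and 203 for blank, 498 and 157 for cluster B and 589 and 360 for cluster C. Leaving out a pair without SKO did so for that arm, to 322 and 213 for blank, 356 and 283 for cluster B and 313 and 221 for cluster C. Most of the positive genes were of 2 kinds. One kind rose with SKO and did not pass without it (248 genes), and the other did not pass with SKO and fell without it (88 genes). A further 28 rose with SKO and fell without, 14 rose in both arms and 5 fell in both, and 9 passed in neither arm alone. Among the negative genes, 106 rose only in the arm without SKO by this test, 47 passed only as a fall with SKO, 26 rose in both arms and less with SKO, and 12 fell with SKO and rose without. The remaining negative genes were 8 that passed in neither arm and 1 that fell in both. Across all genes the day change with SKO and the day change without it correlated with r = 0.31, a description over genes that are not independent. Between viruses, which share no array, the differences correlated with r = 0.29 for blank and cluster B, 0.43 for blank and cluster C and 0.30 for cluster B and cluster C.

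**Figure D1:**
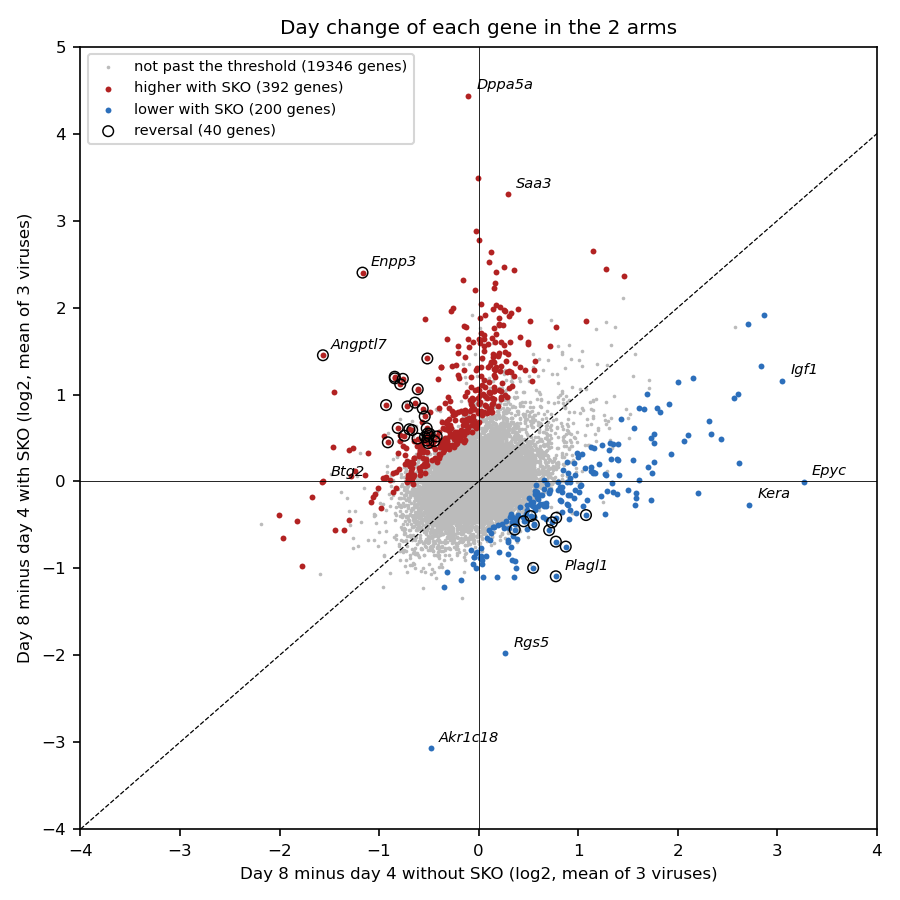
Each point is 1 of 19938 genes, with its mean day change over 3 viruses without SKO on the x axis and with SKO on the y axis (log2, both linear), and the dashed line marks equal change. The 392 positive genes lie above the line, the 200 negative genes below it, and the 40 circled genes changed in opposite directions in the arms.

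For 162 of the positive and 76 of the negative genes the gap between the arms changed sign between the days, so the arm that was lower on day 4 was the higher one on day 8. For 79 and 33 of these, respectively, the 3 arrays of each arm did not overlap on either day. The counts of this paragraph were made only among genes that passed a test for a changed gap. The share of such crossings over all genes was not counted, so it is not known how common they are elsewhere. For 209 positive and 92 negative genes the gap kept its sign and widened, and for 21 and 32 it narrowed. Of the 592 genes, 59 positive and 34 negative ones had means at or below the median of all gene values (5.32) in every arm and on both days.

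The reversals are the genes that passed in both arms in opposite directions and in the difference. Those that rose with SKO and fell without numbered 28 (0.140% of genes tested), and those that fell with SKO and rose without numbered 12 (0.0602%). The counts were 12 to 16 and 1 to 6 with 1 array left out, lower for every array of the 12, and 14 and 2 in the paired fit. The 16 named members kept their call for the difference in the paired fit, but a reversal also needs both day changes to pass. With 2 genes left there that fell with SKO and rose without, most of the 8 named in that class were no longer reversals. The calls given below are for the difference alone. The largest member was Enpp3, an ectoenzyme that cleaves extracellular nucleotides. For blank, cluster B and cluster C in that order, Enpp3 with SKO read 6.27, 6.47 and 6.15 on day 4 and 8.55, 8.40 and 9.15 on day 8. Without SKO it read 6.14, 5.95 and 5.69 on day 4 and 4.71, 4.66 and 4.92 on day 8. The arms lay close together on day 4 and far apart on day 8, and the difference of day changes was 3.57 ± 0.28 (SE, adjusted p = 0.00075).

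Angptl7, a secreted angiopoietin-like protein, crossed over completely. With SKO its arrays read 6.09, 5.67 and 5.06 on day 4 and 7.38, 7.21 and 6.59 on day 8, again in the order blank, cluster B and cluster C. Those without SKO read 6.61, 6.58 and 6.31 on day 4 and 5.07, 4.99 and 4.75 on day 8. Every array with SKO was below every array without it on day 4 and above on day 8, with a difference of 3.02 ± 0.14 (SE, adjusted p = 0.000104).

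Laminin alpha 5 (Lama5), a chain of epithelial basement membranes, and integrin alpha 3 (Itga3), a subunit of a laminin receptor, crossed in the same way. Lama5 with SKO read 6.20, 6.22 and 6.38 on day 4 and 7.33, 7.34 and 7.70 on day 8. Without SKO the Lama5 values were 6.92, 6.95 and 6.84 on day 4 and 6.0, 6.10 and 6.09 on day 8. For both genes the arms did not overlap on either day and changed order. The differences were 2.03 ± 0.14 (SE, adjusted p = 0.000465) for Lama5 and 2.05 ± 0.17 (SE, adjusted p = 0.00075) for Itga3, which rose by 1.21 with SKO and fell by 0.84 without.

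Krt7, a keratin of simple epithelia, read 5.23, 5.08 and 5.42 with SKO on day 4 and 6.17, 6.52 and 6.58 on day 8. Without SKO it went from 6.11, 5.88 and 5.85 to 5.21, 5.27 and 5.07. Krt7 thus changed order between the arms with no overlap on either day. Spint2, an inhibitor of cell-surface serine proteases in epithelia, was already higher with SKO on day 4 and drew further apart, with a day change of 1.42 with SKO and -0.51 without. Rab27a, a small GTPase of secretory vesicles, did the same (1.06 and -0.61). Peg10, an imprinted gene derived from a retrotransposon, changed order, with day changes of 0.88 and -0.93. The differences were 1.94, 1.93, 1.67 and 1.81 for Krt7, Spint2, Rab27a and Peg10, at adjusted p-values of 0.000842, 0.00075, 0.00075 and 0.00259.

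In the opposite class the largest member was Plagl1, an imprinted zinc finger transcription factor that holds back growth. With SKO it read 7.81, 7.80 and 7.86 on day 4 and 6.54, 6.82 and 6.84 on day 8. The arm without SKO read 7.86, 7.78 and 8.25 on day 4 and 8.80, 8.69 and 8.73 on day 8. The arms overlapped on day 4 and were apart on day 8, with a difference of -1.87 ± 0.17 (SE, adjusted p = 0.0012). Fst encodes follistatin, which binds activin and keeps it from its receptors. Its values with SKO were 8.51, 8.69 and 8.47 on day 4 and 8.19, 8.25 and 8.07 on day 8. Without SKO they were 8.27, 8.16 and 8.19 on day 4 and 9.20, 9.29 and 9.37 on day 8. Fst was higher with SKO on day 4 on every array and lower on day 8 on every array, and its difference was -1.47 ± 0.14 (SE, adjusted p = 0.00136).

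Chsy3, a chondroitin synthase, and Adamts3, a procollagen protease, also changed order with no overlap on either day. Their day changes were -0.99 with SKO and 0.55 without for Chsy3, and -0.47 and 0.74 for Adamts3. The matrix protein Abi3bp was lower with SKO throughout (-0.75 and 0.88), and the cadherin Cdh18 fell by 0.69 with SKO and rose by 0.78 without. Plcl1, a phospholipase C-like signalling protein, and Efhd1, a calcium-binding mitochondrial protein, were higher with SKO on every array of both days and drew nearer to the other arm. The differences of the 6 genes were -1.54, -1.21, -1.63, -1.47, -1.20 and -1.27 in the order named. The call of Efhd1 for the difference was lost with 1 array left out (cluster B or cluster C with SKO or blank without SKO, adjusted p up to 0.0525). Adamts3 has 16 probe sets and Cdh18 has 2, and the values given are those of the brightest. The differences of both genes also passed with the mean over probe sets, but the other probe sets were not read singly.

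**Figure D2:**
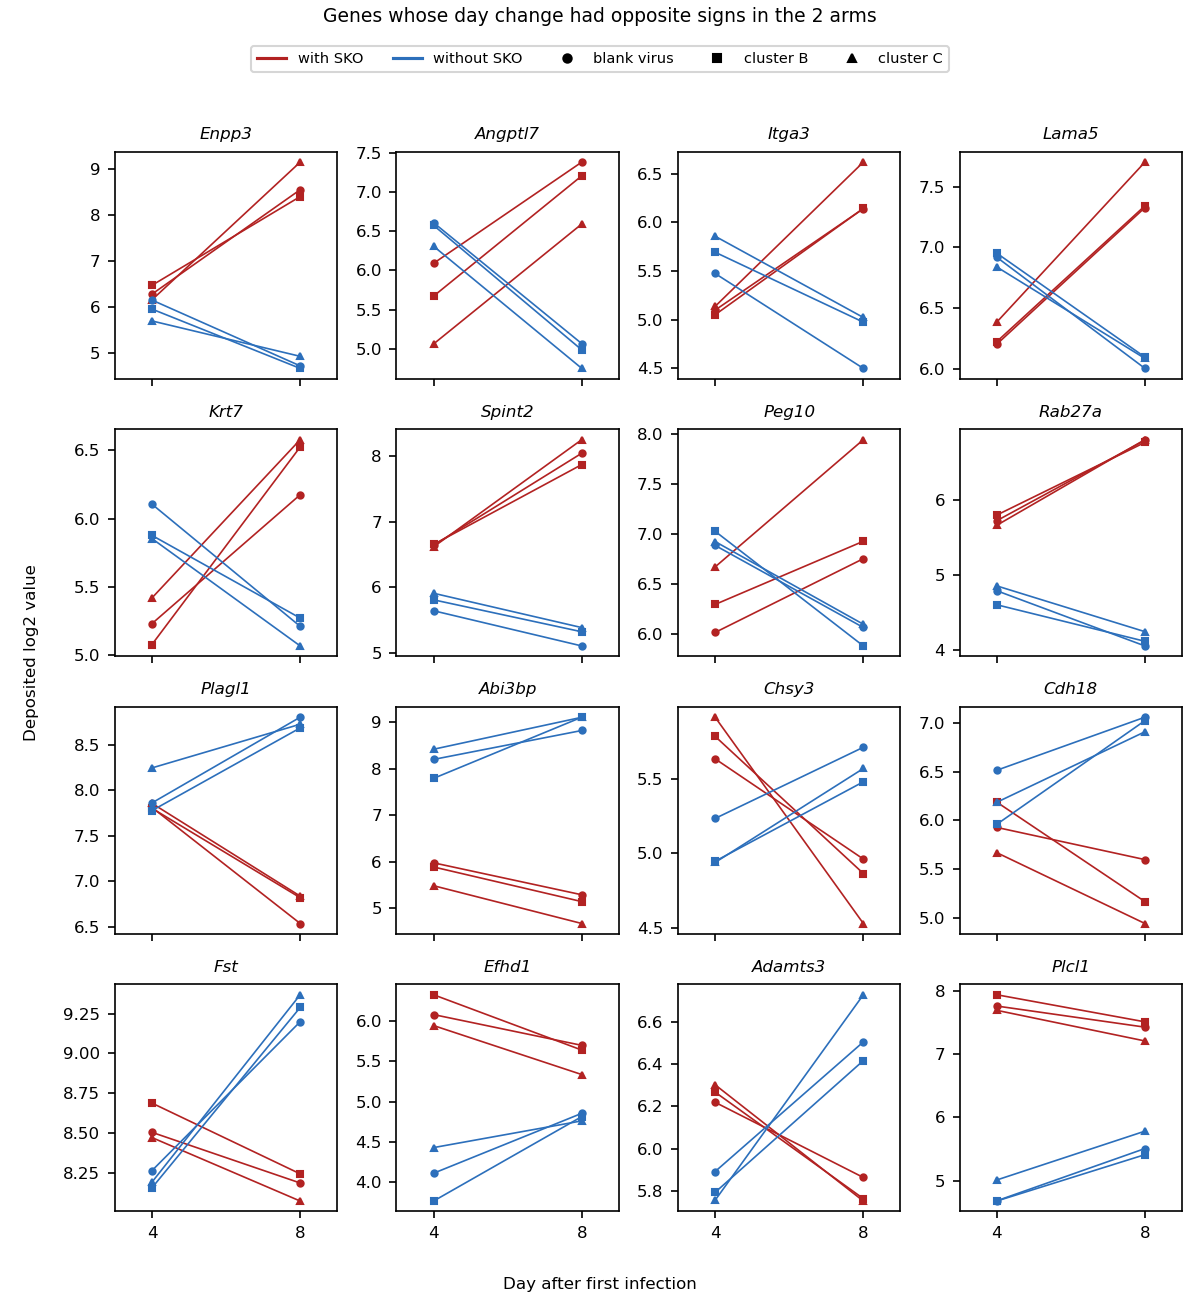
Deposited log2 values on day 4 and day 8 for the 8 largest members of each reversal class, 1 line per virus (circles blank, squares cluster B, triangles cluster C), red with SKO and blue without; y axes differ between panels and do not start at 0. Lines of the arms run in opposite directions in every panel, as for Angptl7 (difference 3.02) and Plagl1 (-1.87).

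Genes of epithelial identity were the list with the most positive calls. Of 40 measured, 13 passed with a positive difference and 0 with a negative one, against 1.97% and 1.0% of all genes, and all 40 had a difference above 0. The counts of every list below are to be set beside these 2 shares. The list median was 0.69, against -0.02 over all genes tested, and was 0.34 for blank, 0.82 for cluster B and 0.87 for cluster C. With SKO 24 rose and none fell, and without SKO none rose and 3 fell. With 1 array left out in turn, 9 of the 13 calls held in all 12 fits.

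Epcam, an adhesion molecule of epithelial and embryonic stem cells, had the largest difference of the list. With SKO it read 4.95, 5.24 and 5.23 on day 4 and 7.20, 7.32 and 7.85 on day 8. In the arm without SKO it read 3.79, 4.27 and 4.32 on day 4 and 3.89, 4.24 and 3.77 on day 8. The arm with SKO was higher on both days and rose, the other arm had a day change of -0.16 that did not pass, and the difference was 2.47 ± 0.21 (SE, adjusted p = 0.000763). E-cadherin (Cdh1), the junction protein by which epithelial cells hold together, read 5.05, 5.27 and 5.72 on day 4 and 6.34, 6.62 and 7.19 on day 8 with SKO. Arrays without SKO read 4.18, 4.06 and 4.10 on day 4 and 4.36, 4.61 and 4.47 on day 8. Its lowest value with SKO was above its highest without SKO, and the difference of day changes was 1.0 ± 0.15 (SE, adjusted p = 0.0111).

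The keratins Krt19 and Krt8, filament proteins of simple epithelia, differed by 1.87 and 1.37 (adjusted p = 0.00152 and 0.00282). Krt19 went from 6.0, 6.06 and 5.96 to 7.87, 7.84 and 7.96 with SKO and from 5.51, 5.39 and 5.49 to 5.36, 5.78 and 5.31 without. The other members that passed included the membrane protease St14 (matriptase, 1.69), its inhibitor Spint1 (1.45), the apical transport proteins Mal2 (1.69) and Rab25 (1.43), and the epithelial transcription factor Ehf (1.26). Plakoglobin (Jup, 0.84) and desmoplakin (Dsp, 0.67), parts of the desmosome, had the smallest differences among the 13. Leaving out 1 array ended the call for Spint1 (any pair but blank with SKO, adjusted p up to 0.0917, and 0.0706 in the paired fit), Rab25 (cluster B or cluster C with SKO or blank or cluster B without SKO, adjusted p up to 0.0983), Jup (any pair but cluster C with SKO, adjusted p up to 0.101, and 0.0899 in the paired fit) and Dsp (any pair, adjusted p up to 0.14, and 0.108 in the paired fit).

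Of 28 keratin and cornified envelope genes, which belong to skin-like epithelia, 5 passed with a positive difference and 0 with a negative one, and the median was 0.25. Dmkn, a secreted protein of the epidermis, read 4.32, 4.33 and 4.35 on day 4 and 5.84, 5.90 and 6.20 on day 8 with SKO. Without SKO it lay between 3.92 and 4.26 on both days. The values of the arms were close on day 4 and apart on day 8, with a difference of 1.51 ± 0.16 (SE, adjusted p = 0.00208). Lgals7, a galectin of stratified epithelia, differed by 1.44, Ly6d by 1.25, the basal keratin Krt14 by 1.21 and Krt80 by 0.75. The last 3 calls did not hold with 1 array left out: Ly6d (any pair but blank with SKO, adjusted p up to 0.084, and 0.0524 in the paired fit), Krt14 (any pair but cluster B with SKO, adjusted p up to 0.107) and Krt80 (any pair but cluster C without SKO, adjusted p up to 0.132, and 0.0977 in the paired fit).

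**Figure D3:**
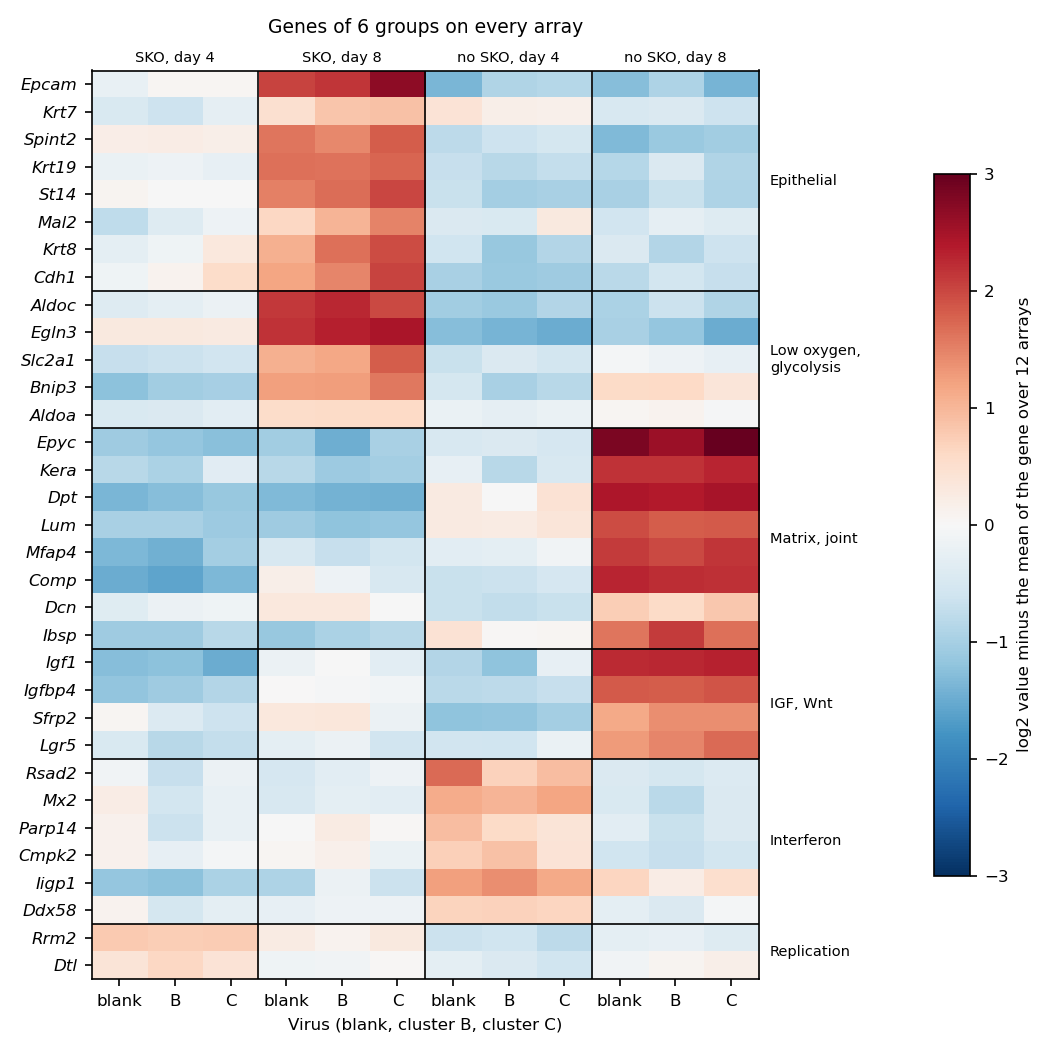
Colour gives the log2 value of a gene on an array minus its mean over the 12 arrays (red above, blue below), with arrays in 4 blocks of arm and day and the 3 viruses within each. Epithelial and low-oxygen genes are red in the day 8 block with SKO (Epcam, difference 2.47), and matrix genes in the day 8 block without SKO (Epyc, -3.27).

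Of 40 genes of the pluripotency network other than the delivered factors, 6 passed with a positive and 1 with a negative difference, and the median was 0.33. The median was 0.07 for blank, 0.36 for cluster B and 0.71 for cluster C. Dppa5a, an RNA-binding protein of embryonic stem cells, had the largest difference of all named genes. It read 3.53, 3.48 and 3.30 on day 4 and 6.61, 6.82 and 10.22 on day 8 with SKO. Without SKO the values were 3.94, 3.56 and 4.35 on day 4 and 3.40, 4.02 and 4.12 on day 8. All day 4 values and all values without SKO were below the median of their arrays, and the day 8 array of cluster C with SKO stood apart above the other 2. The difference was 4.55 ± 0.86 (SE, adjusted p = 0.0284), made of 3.62, 2.88 and 7.15 for blank, cluster B and cluster C.

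Tdgf1 (Cripto), a co-receptor for Nodal, also had its highest value in cluster C, with differences of 1.57, 3.07 and 5.86 and a mean of 3.50 ± 0.74 (SE, adjusted p = 0.0434). It read 5.61, 6.18 and 9.37 on day 8 with SKO and no more than 4.10 on any other array. Zfp42 (Rex1), a zinc finger protein of naive stem cells, differed by 1.66 (adjusted p = 0.0198), with a fitted rise of 1.06 with SKO.

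Fbxo15, an F-box gene bound by Oct4, read 4.44, 5.38 and 5.61 on day 4 and 6.98, 7.26 and 7.87 on day 8 with SKO. Without SKO it lay between 2.67 and 3.44 throughout. The arms did not overlap on either day, and the difference was 2.08 ± 0.22 (SE, adjusted p = 0.0024). Tfcp2l1, a transcription factor of the naive network, differed by 1.49 with 1.43, 1.47 and 1.56 for the 3 viruses, and Gdf3, a TGF-beta family ligand, by 0.82. Alkaline phosphatase (Alpl), which stains stem cell colonies and is also made by bone cells, was the negative member at -1.07 (adjusted p = 0.0135). It rose by 1.17 without SKO and read 5.31, 5.42 and 5.52 on day 4 and 5.29, 5.50 and 5.77 on day 8 with SKO.

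Nanog, Esrrb and Sall4, picked with their values in view, did not pass. Their differences were 0.23, 1.53 and 2.58 for Nanog, 0.32, 0.67 and 1.93 for Sall4 and -0.0015, 0.65 and 1.53 for Esrrb (blank, cluster B and cluster C). In each of the 3 the cluster C value was the highest. Leaving out 1 array ended the call for Dppa5a (any pair without SKO, adjusted p up to 0.096), Tdgf1 (cluster B with SKO or any pair without SKO, adjusted p up to 0.136, and 0.0728 in the paired fit), Zfp42 (any pair without SKO, adjusted p up to 0.0731), Gdf3 (any pair but cluster C with SKO, adjusted p up to 0.0993, and 0.0902 in the paired fit) and Alpl (blank or cluster B with SKO, adjusted p up to 0.0611, and 0.0509 in the paired fit). Without either array of cluster C with SKO, Dppa5a still passed, at the lowest difference of its 12 fits, 3.31.

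**Figure D4:**
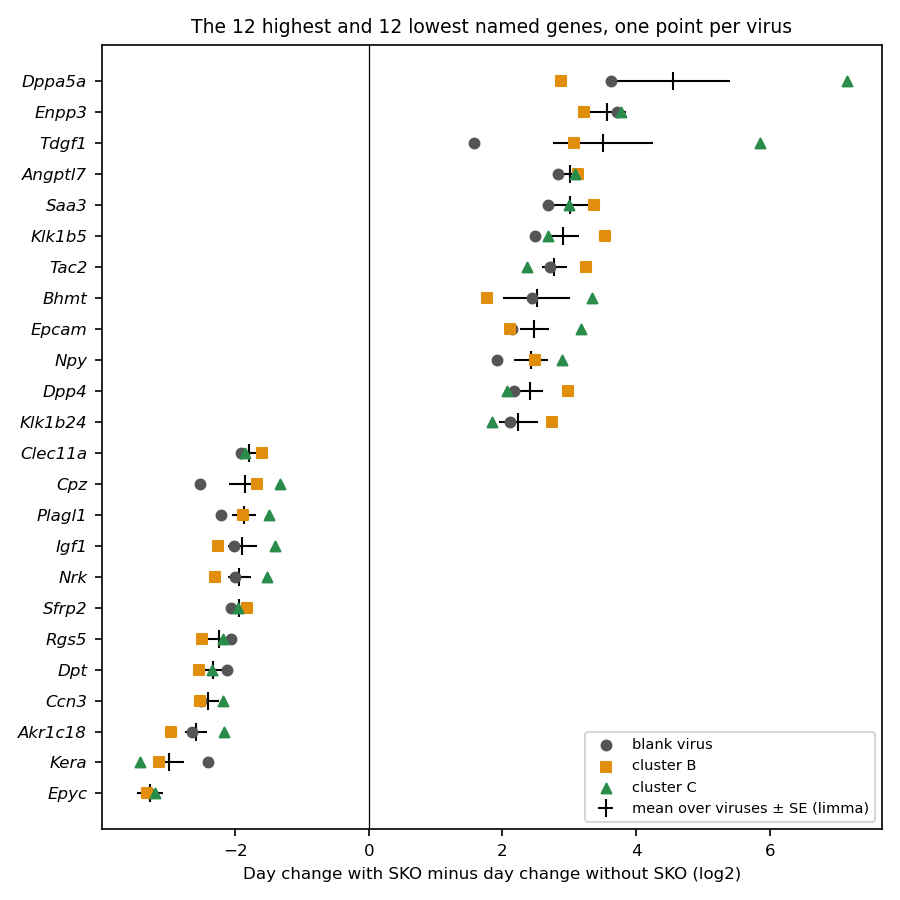
Difference of day changes (log2) for the 12 highest and 12 lowest named genes, 1 point per virus with the mean over viruses and its limma standard error. For Dppa5a and Tdgf1 the cluster C points (7.15 and 5.86) lie apart from the other viruses, while for Epyc and Angptl7 the 3 points lie together.

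The glycolysis and low-oxygen response list holds enzymes that turn glucose to lactate, glucose transporters and targets of the hypoxia-inducible factor HIF, whose binding site holds the letters ACGTG. Of 36 measured, 9 passed with a positive difference and 0 with a negative one, and the median was 0.41 (0.38, 0.25 and 0.64 for blank, cluster B and cluster C). With SKO 21 rose and none fell, and without SKO 13 rose and 2 fell. The bases before the start of 3 members that passed are shown, because ACGTG lies in them, with the match on either strand in capitals. They run 5′ to 3′ along the gene and are from RefSeq, build GRCm38.p6: Egln3, chr12:54204069-54204124 on the minus strand; Slc2a1, chr4:119108679-119108743 on the plus strand; Bnip3, chr7:138909579-138909644 on the minus strand.
Egln3: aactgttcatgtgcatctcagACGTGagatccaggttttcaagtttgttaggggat
Slc2a1: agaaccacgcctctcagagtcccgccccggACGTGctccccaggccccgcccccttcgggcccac
Bnip3: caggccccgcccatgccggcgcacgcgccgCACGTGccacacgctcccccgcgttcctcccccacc
The capitals of Bnip3 are CACGTG, which holds ACGTG on both strands and is also the letters of an E-box. Among 15614 genes with a promoter of 300 bases in the RefSeq table, with 1 chromosome left out, 24.4% held ACGTG on either strand. Of 33 list members with a promoter there, 23 (69.7%) did. A match of these letters is a description and does not show a bound site, and the shares do not depend on the array values.

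Aldoc, an aldolase of glycolysis, read 6.18, 6.28 and 6.38 on day 4 and 8.69, 8.83 and 8.55 on day 8 with SKO. Without SKO it read 5.51, 5.46 and 5.68 on day 4 and 5.61, 5.91 and 5.65 on day 8. All values with SKO were above all values without it, the gap widened by day 8, and the difference was 2.24 ± 0.18 (SE, adjusted p = 0.00075). Egln3, the oxygen-sensing prolyl hydroxylase that marks HIF for destruction and is itself a HIF target, read 6.68, 6.68 and 6.65 on day 4 and 8.55, 8.71 and 8.83 on day 8 with SKO. It read 5.11, 4.99 and 4.90 on day 4 and 5.41, 5.22 and 4.90 on day 8 without. The arms were apart on both days and further apart on day 8, at a difference of 1.85 ± 0.15 (SE, adjusted p = 0.00075).

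Slc2a1 (Glut1), the main glucose transporter of dividing cells, began level in the arms. It read 7.56, 7.60 and 7.67 with SKO and 7.57, 7.80 and 7.70 without on day 4. On day 8 it read 9.31, 9.41 and 10.06 with SKO and 8.20, 8.08 and 8.0 without. Only the day 8 values were apart, with cluster C highest, and the difference was 1.58 ± 0.20 (SE, adjusted p = 0.00568). Bnip3, a mitophagy receptor, rose in both arms, by 2.44 with SKO and 1.28 without, and changed order: it was lower with SKO on day 4 and higher on day 8 on every array. Its difference was 1.16 ± 0.17 (SE, adjusted p = 0.0111). The enolase Eno2 was a reversal that rose by 0.49 with SKO and fell by 0.61 without. The others that passed were Kdm3a, a histone demethylase (0.94), Aldoa, the main aldolase (0.72), Ankrd37 (0.67) and Ndrg1 (0.61). Calls lost with 1 array left out were Bnip3 (cluster C without SKO, adjusted p up to 0.0521), Kdm3a (any pair but cluster B with SKO, adjusted p up to 0.0687), Aldoa (any pair, adjusted p up to 0.108, and 0.0893 in the paired fit), Ankrd37 (any pair, adjusted p up to 0.166, and 0.113 in the paired fit) and Ndrg1 (any pair, adjusted p up to 0.143, and 0.128 in the paired fit).

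The negative genes were led by matrix genes that rose without SKO. Epyc (epiphycan) and Kera (keratocan) are small leucine-rich proteoglycans of cartilage and cornea. Epyc read 3.25, 3.16 and 3.06 on day 4 and 3.27, 2.86 and 3.34 on day 8 with SKO. The arm without SKO read 3.84, 3.88 and 3.82 on day 4 and 7.14, 6.89 and 7.31 on day 8. All 6 values with SKO were at the dim end of the array, and only the day 8 arrays without SKO were bright, so the difference of -3.27 ± 0.20 (SE, adjusted p = 0.00046) came from 1 arm. Kera went from 4.91, 4.31 and 4.67 to 7.31, 7.32 and 7.43 without SKO and stayed between 4.06 and 4.80 with it, a difference of -2.99 ± 0.22 (SE, adjusted p = 0.00075).

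Dpt (dermatopontin), a matrix protein that binds decorin, read 5.47, 5.57 and 5.70 on day 4 and 5.52, 5.42 and 5.39 on day 8 with SKO. In the arm without SKO it read 7.10, 6.82 and 7.26 on day 4 and 9.27, 9.21 and 9.31 on day 8. It was higher without SKO on both days and the gap grew, with a difference of -2.34 ± 0.16 (SE, adjusted p = 0.000465). Lumican (Lum), a proteoglycan that spaces collagen fibrils, rose by 1.58 without SKO and read 8.57, 8.58 and 8.45 on day 4 and 8.48, 8.35 and 8.39 on day 8 with it, a difference of -1.71 ± 0.14 (SE, adjusted p = 0.00075).

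Of 38 matrix glycoproteins and proteoglycans, 11 passed with a negative difference and 0 with a positive one, and the median was -0.27. With SKO 12 rose and 6 fell, and without SKO 17 rose and 2 fell. Mfap4, a protein of elastic microfibrils, rose in both arms, by 0.69 with SKO and 2.31 without. Comp, the cartilage oligomeric matrix protein, also rose in both, by 1.33 and 2.84, and its relative Thbs4 rose by 1.33 without SKO. The differences were -1.62, -1.51 and -1.07 in that order (adjusted p = 0.00148, 0.00879 and 0.0136).

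Decorin (Dcn), which was higher with SKO on day 4 on every array, was lower on every array on day 8. It read 9.36, 9.54 and 9.58 on day 4 and 10.04, 10.03 and 9.70 on day 8 with SKO. Without SKO Dcn read 9.05, 8.97 and 9.05 on day 4 and 10.46, 10.28 and 10.52 on day 8, a difference of -0.97 ± 0.17 (SE, adjusted p = 0.0224). Periostin (Postn), a matricellular protein of wounds and periosteum, rose in both arms by 0.84 and 1.66, a difference of -0.82. Fmod (-1.02), Mfap5 (-0.94), Fbn2 (-0.87), Fbln5 (-0.75) and Nid2 (-0.71) were the other members that passed. Of the 11 calls, 4 held with every array left out in turn, those of Lum, Mfap4, Comp and Fmod. The others were lost: Thbs4 (blank or cluster C with SKO or blank or cluster C without SKO, adjusted p up to 0.0616, and 0.0564 in the paired fit), Dcn (any pair but blank with SKO, adjusted p up to 0.0865, and 0.0675 in the paired fit), Mfap5 (blank with SKO or blank without SKO, adjusted p up to 0.054), Fbn2 (blank with SKO or cluster C without SKO, adjusted p up to 0.0533, and 0.0544 in the paired fit), Postn (any pair, adjusted p up to 0.0964, and 0.0732 in the paired fit), Fbln5 (any pair, adjusted p up to 0.116, and 0.0801 in the paired fit) and Nid2 (any pair, adjusted p up to 0.108, and 0.0917 in the paired fit).

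Of 24 fibrillar and associated collagens, 3 passed with a negative and 2 with a positive difference, and the median was -0.15. Col8a2 rose by 1.76 without SKO and 0.44 with it, and Col14a1 by 1.91 and 0.90, for differences of -1.32 ± 0.14 (SE, adjusted p = 0.00259) and -1.01 ± 0.13 (SE, adjusted p = 0.00629). Col9a1, of cartilage, differed by -0.71. Col10a1, of hypertrophic cartilage, and Col6a3 were positive at 0.93 and 0.68. The main fibrillar collagen Col1a1, named after its value was seen, read 11.42 to 13.01 on the 12 arrays and did not pass, at -0.43 ± 0.15 (SE, adjusted p = 0.194). Calls of Col9a1 (any pair, adjusted p up to 0.166, and 0.118 in the paired fit), Col10a1 (any pair but blank without SKO, adjusted p up to 0.121, and 0.0923 in the paired fit) and Col6a3 (any pair, adjusted p up to 0.124, and 0.0977 in the paired fit) were lost with 1 array left out.

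Of 21 cartilage and bone genes, 5 passed with a negative and 1 with a positive difference (Col10a1), and the median was -0.34. With SKO 2 rose and none fell, and without SKO 10 rose and none fell. Ibsp, bone sialoprotein, read 3.67, 3.68 and 3.92 on day 4 and 3.62, 3.79 and 3.92 on day 8 with SKO. Arrays without SKO read 5.18, 4.77 and 4.80 on day 4 and 6.36, 6.85 and 6.39 on day 8. It was dim with SKO on all arrays and rose in the other arm alone by this test, a difference of -1.59 ± 0.22 (SE, adjusted p = 0.00793). Hapln1, which links proteoglycans to hyaluronan, differed by -1.11 and Phex, a bone endopeptidase, by -1.01, beside Alpl and Col9a1 given above. The Phex call was lost with 1 array left out (cluster B or cluster C with SKO, adjusted p up to 0.0509).

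Secreted growth factors and their binding proteins were among the negative genes. Igf1, insulin-like growth factor 1, read 6.20, 6.26 and 6.0 on day 4 and 7.31, 7.46 and 7.17 on day 8 with SKO. Without SKO it read 6.61, 6.27 and 7.23 on day 4 and 9.73, 9.74 and 9.80 on day 8. It rose in both arms and more without SKO, so the arms did not overlap on day 8, with a difference of -1.89 ± 0.22 (SE, adjusted p = 0.0031). Igfbp4, a binding protein that holds IGFs from their receptor, did the same, rising by 1.01 with SKO and 2.61 without, a difference of -1.60 ± 0.15 (SE, adjusted p = 0.00136). Igf2, the imprinted fetal growth factor, fell by 0.63 with SKO and had a day change of 0.35 without (adjusted p = 0.102), a difference of -0.98.

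Of 36 genes of the IGF and PDGF axis, 7 passed with a negative and 5 with a positive difference, and the median was -0.33. The negative members also held Fgf18 (-1.13), Igfbp2 (-0.96), Igfbp3 (-0.94) and Pdgfrl (-0.76). The positive members were the receptors Igf1r (0.68) and Pdgfra (0.68), the ligand Pdgfc (0.70) and the binding proteins Igfbp6 (0.72) and Igfbp7 (0.69). Pdgfra, a fibroblast marker, rose by 0.48 with SKO from a lower level, reading 7.99, 7.55 and 7.45 on day 4 and 8.27, 8.21 and 7.96 on day 8. The arm without SKO read 9.86, 9.79 and 9.91 on day 4 and 9.65, 9.63 and 9.69 on day 8, higher on every array. Apart from Igf1 and Igfbp4, every call of this list was lost with at least 1 array left out. These were Igf2 (blank or cluster C with SKO or blank without SKO, adjusted p up to 0.0754, and 0.0589 in the paired fit), Fgf18 (blank or cluster C with SKO or cluster B or cluster C without SKO, adjusted p up to 0.0644), Igfbp2 (any pair but cluster C with SKO, adjusted p up to 0.127, and 0.0975 in the paired fit), Igfbp3 (blank or cluster C with SKO or cluster B or cluster C without SKO, adjusted p up to 0.0681, and 0.0589 in the paired fit), Pdgfrl (any pair, adjusted p up to 0.102, and 0.0801 in the paired fit), Igf1r (any pair, adjusted p up to 0.116, and 0.102 in the paired fit), Pdgfra (any pair, adjusted p up to 0.142, and 0.112 in the paired fit), Pdgfc (any pair, adjusted p up to 0.105, and 0.0977 in the paired fit), Igfbp6 (any pair but cluster B without SKO, adjusted p up to 0.135, and 0.0975 in the paired fit) and Igfbp7 (any pair, adjusted p up to 0.126, and 0.102 in the paired fit).

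Of 37 Wnt modulators and targets, 4 passed with a negative and 0 with a positive difference, and the median was -0.12. Sfrp2, a secreted Wnt antagonist, read 8.45, 7.98 and 7.76 on day 4 and 8.72, 8.74 and 8.22 on day 8 with SKO. In the arm without SKO it read 7.20, 7.22 and 7.38 on day 4 and 9.53, 9.79 and 9.78 on day 8. It was higher with SKO on every day 4 array and lower on every day 8 array, a difference of -1.95 ± 0.17 (SE, adjusted p = 0.00075). Its relative Sfrp1 rose in both arms, by 1.14 with SKO and 2.01 without. Lgr5, a receptor for R-spondins, rose by 1.94 without SKO, and Rspo3, an R-spondin that strengthens Wnt signals, by 0.84. The differences of Lgr5, Rspo3 and Sfrp1 were -1.62, -0.96 and -0.87. Of the 4 calls, 2 were lost with 1 array left out, Rspo3 (blank or cluster B with SKO or blank or cluster B without SKO, adjusted p up to 0.065, and 0.0675 in the paired fit) and Sfrp1 (blank or cluster C with SKO or cluster C without SKO, adjusted p up to 0.0682, and 0.0589 in the paired fit).

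Several other secreted or surface proteins were among the 12 largest negative differences. Ccn3, a matricellular protein of the CCN family, read 7.77, 7.76 and 7.75 on day 4 and 7.88, 8.07 and 7.97 on day 8 with SKO. Without SKO Ccn3 read 8.08, 7.86 and 8.47 on day 4 and 10.69, 10.70 and 10.88 on day 8. The day 8 arrays without SKO stood above all others, and the difference was -2.40 ± 0.16 (SE, adjusted p = 0.000465). Clec11a, a growth factor for bone-forming cells, rose in both arms, by 0.55 with SKO and 2.33 without, and Cpz, a secreted carboxypeptidase, and the kinase Nrk rose without SKO by 1.57 and 1.73. The differences of Clec11a, Cpz and Nrk were -1.79, -1.85 and -1.94.

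Akr1c18 and Rgs5 passed as falls with SKO. Akr1c18, an enzyme that inactivates progesterone, read 9.31, 9.51 and 9.84 on day 4 and 6.23, 6.24 and 6.99 on day 8 with SKO. Arrays without SKO read 3.69, 3.72 and 3.90 on day 4 and 3.26, 3.41 and 3.21 on day 8. It was far higher with SKO on both days, and the gap narrowed, since Akr1c18 fell by 3.06 with SKO, with a difference of -2.59 ± 0.17 (SE, adjusted p = 0.000465). Rgs5, a regulator of G protein signals known from pericytes, read 6.03, 6.53 and 6.08 on day 4 and 4.38, 4.24 and 4.08 on day 8 with SKO. Without SKO Rgs5 read 4.59, 4.45 and 4.59 on day 4 and 5.0, 4.66 and 4.78 on day 8. Its arms changed order with no overlap on either day, a difference of -2.25 ± 0.19 (SE, adjusted p = 0.00075).

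Other large positive differences belonged to genes outside the lists above. Saa3, an acute-phase protein, read 4.42, 4.47 and 4.88 on day 4 and 7.50, 7.60 and 8.59 on day 8 with SKO, and between 4.09 and 4.81 without. Its difference was 3.01 ± 0.26 (SE, adjusted p = 0.000842). The neuropeptide genes Tac2 (neurokinin B) and Npy (neuropeptide Y) rose by 2.78 and 2.53 with SKO. Tac2 read 5.93, 6.08 and 5.57 on day 8 with SKO and at most 3.27 on any other array, and the differences were 2.77 ± 0.19 (SE, adjusted p = 0.000465) and 2.43 ± 0.25 (SE, adjusted p = 0.00207). Dpp4 (CD26), a surface peptidase, was higher with SKO on both days and differed by 2.40 ± 0.20 (SE, adjusted p = 0.00075). Klk1b5 and Klk1b24, kallikrein proteases, rose by 2.88 and 2.20 with SKO and differed by 2.90 and 2.24. The kallikrein family has near-identical copies, so these probe sets may read several of them. Bhmt, an enzyme of methionine synthesis, differed by 2.51 (adjusted p = 0.0357), and its call was lost with 1 array left out (any pair but blank with SKO, adjusted p up to 0.0978).

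The interferon response list had a median that differed much between viruses. Interferon-stimulated genes block the entry, copying and spread of viruses, and their promoters carry the interferon-stimulated response element (ISRE), to which the STAT and IRF factors bind. Of 37 measured, 6 passed with a positive difference and 0 with a negative one, and the median was 0.95. It was 0.37 for blank, 1.73 for cluster B and 0.62 for cluster C, and 0.534 in the fit without the cluster B arrays. This was the highest median of the 39 lists over the 3 viruses and for cluster B. For cluster C, epithelial identity (0.865), pluripotency (0.708) and glycolysis (0.636) were higher. In the fit without cluster B, epithelial identity was higher (0.606). For blank, glutathione (0.404) and glycolysis (0.380) were higher. With a filter on dim genes, epithelial identity read 1.129 and interferon 0.954. That filter keeps a gene if its mean in any arm and day is above the median of all values. A dim gene can pass through its rise in 1 arm, so these 2 medians do not rank the lists. With SKO 2 rose and none fell, and without SKO 1 rose and 16 fell. The median day change was 0.09 with SKO and -0.74 without. Promoter stretches are shown for 4 members with the letters GAAA, any 2 bases and GAAA on either strand before the start. These are 4 of the 6 such members with the largest differences, and only Rsad2 of the 4 passed. The letters lie in the promoters of 15 of the 26 list members that have one. They are in capitals, 5′ to 3′ along the gene, from RefSeq build GRCm38.p6: Rsad2, chr12:26456533-26456602 on the minus strand; Ifit1, chr19:34640755-34640843 on the plus strand; Irgm1, chr11:48871421-48871480 on the minus strand; Gbp3, chr3:142559969-142560043 on the plus strand.
Rsad2: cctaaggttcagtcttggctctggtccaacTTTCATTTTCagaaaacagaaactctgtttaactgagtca
Ifit1: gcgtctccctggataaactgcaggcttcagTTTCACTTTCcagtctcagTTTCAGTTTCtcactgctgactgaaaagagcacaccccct
Irgm1: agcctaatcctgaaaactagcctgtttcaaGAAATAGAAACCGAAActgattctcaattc
Gbp3: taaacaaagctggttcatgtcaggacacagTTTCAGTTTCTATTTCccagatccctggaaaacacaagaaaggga
Rsad2, Ifit1 and Gbp3 carry the match on the strand opposite to the one shown. In Irgm1 and Gbp3 the capitals are 2 overlapping matches, and Ifit1 holds 2 apart from each other. The letters occurred in 3.89% of 15614 genes with a promoter of 300 bases, against 57.7% of those 26 members. These shares do not depend on the array values and say nothing of the day change. The promoters searched left out 1 chromosome. Of the 6 members that passed, 3 had a promoter among those searched and 2 of those held a match.

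Rsad2 (viperin), an antiviral enzyme, read 4.99, 4.40 and 4.92 on day 4 and 4.60, 4.79 and 4.94 on day 8 with SKO. Without SKO it read 6.80, 5.79 and 6.03 on day 4 and 4.67, 4.57 and 4.68 on day 8. The 3 day 4 arrays without SKO were above all 9 others, and the difference was 1.57 ± 0.27 (SE, adjusted p = 0.0205). Mx2, a dynamin-like antiviral GTPase, had the same pattern: 5.96, 5.85 and 6.04 on day 4 without SKO and at most 5.07 elsewhere. The other members that passed were Parp14 (1.43), Cmpk2 (1.34), the GTPase Iigp1 (1.33) and the RNA sensor Ddx58 (RIG-I, 0.98), beside Mx2 at 1.5.

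Ifit3 and Ifit1 did not pass. Ifit3, which binds viral RNA complexes, had differences of 0.76, 3.70 and 0.62 for blank, cluster B and cluster C (adjusted p = 0.137), and Ifit1 of 1.12, 2.76 and 0.84 (adjusted p = 0.106). Ifit3 read 9.41, 9.41 and 8.92 on day 4 and 7.31, 6.35 and 7.54 on day 8 without SKO, and 7.13, 5.59 and 6.12 on day 4 and 5.78, 6.23 and 5.35 on day 8 with SKO. Its cluster B arrays held the lowest day 4 value with SKO and the lowest day 8 value without SKO. None of the 6 calls held with every array left out in turn: they were lost for Rsad2 (cluster B or cluster C with SKO or cluster C without SKO, adjusted p up to 0.0704), Mx2 (cluster C with SKO or cluster C without SKO, adjusted p up to 0.0516), Parp14 (cluster C with SKO or any pair without SKO, adjusted p up to 0.0848, and 0.0509 in the paired fit), Cmpk2 (blank without SKO, adjusted p up to 0.0501, and 0.0544 in the paired fit), Iigp1 (any pair but blank with SKO, adjusted p up to 0.0862, and 0.0896 in the paired fit) and Ddx58 (any pair but blank with SKO, adjusted p up to 0.131, and 0.0876 in the paired fit). The chemokine Cxcl10, an interferon target of another list, fell in both arms, by 0.65 with SKO and 1.96 without. Of 18 genes of MHC class I presentation, which interferons also induce, 2 passed with a positive and 0 with a negative difference, and the median was 0.45. Those that passed were Erap1 (0.79), which trims peptides, and H2-T24 (0.94), whose family has near-identical copies, so its value is uncertain. Leaving out 1 array ended the call for Erap1 (any pair but blank without SKO, adjusted p up to 0.095, and 0.09 in the paired fit), H2-T24 (any pair, adjusted p up to 0.13, and 0.119 in the paired fit) and Cxcl10 (blank or cluster B with SKO or blank without SKO, adjusted p up to 0.0742).

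**Figure D5:**
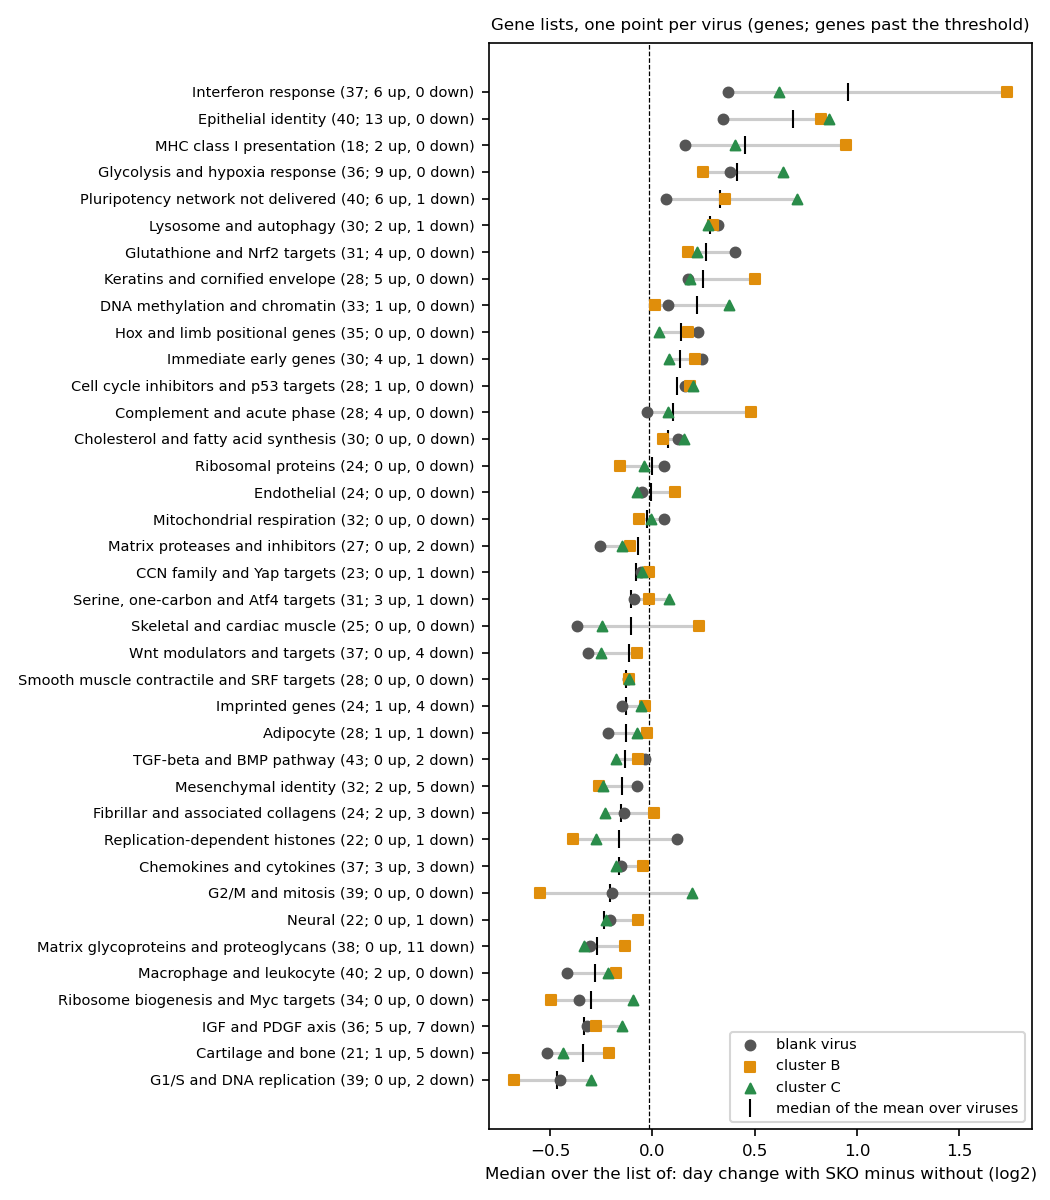
Median difference of day changes (log2) of 38 gene lists (all but the delivered factors), 1 point per virus, a tick for the median of the mean over viruses and a dashed line for all genes; names give the genes measured and those past the threshold. The interferon list spans 0.37 to 1.73 between viruses, while epithelial identity lies between 0.34 and 0.87.

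Genes of DNA replication had differences mostly below 0. Of 39 genes of the G1/S transition and replication, 2 passed with a negative difference and 0 with a positive one, 38 had a difference below 0, and the median was -0.47 (-0.45, -0.68 and -0.30 for blank, cluster B and cluster C). With SKO none rose and 20 fell, and without SKO 1 rose and none fell. Rrm2, a subunit of the enzyme that makes deoxyribonucleotides, was a reversal. It read 9.55, 9.51 and 9.54 on day 4 and 9.01, 8.87 and 9.06 on day 8 with SKO. Without SKO Rrm2 read 8.12, 8.18 and 7.98 on day 4 and 8.47, 8.53 and 8.37 on day 8. It was higher with SKO on both days, and the gap narrowed from both sides, with a difference of -0.92 ± 0.13 (SE, adjusted p = 0.00977). Dtl, part of a ubiquitin ligase that clears licensing factors in S phase, differed by -1.03 ± 0.18 (SE, adjusted p = 0.0223), a call lost with 1 array left out (any pair but blank without SKO, adjusted p up to 0.0792, and 0.0509 in the paired fit).

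Of 39 G2/M and mitosis genes none passed in either direction by limma, 6 had an unadjusted p under 0.05, and the median was -0.21. With SKO none rose and 23 fell, and without SKO none rose and 15 fell. By virus the median was -0.20 for blank, -0.55 for cluster B and 0.19 for cluster C. Cenpe, a kinetochore motor, had the most negative difference of the list, -0.64, -1.10 and 0.24 for the 3 viruses (adjusted p = 0.389), and Plk1, the mitotic kinase, -0.67, -0.41 and -0.29 (adjusted p = 0.164). Cyclin A2 (Ccna2) and separase (Espl1) had fitted differences of -0.48 and -0.46 (adjusted p = 0.12 and 0.138). The promoters of these lists held the letters of cell cycle elements. The E2F site (TTTGGCGC or TTTCGCGC, either strand) was in 11 of 34 G1/S promoters (32.4%) against 1.31% of all, and the CHR element (TTTGAA, either strand) in 24 of 33 G2/M promoters (72.7%) against 17.3% of all. These shares are of whole lists and do not depend on the array values, so they say nothing of the day change. Of the 2 genes that passed, Dtl held an E2F match. Of 34 genes of ribosome biogenesis and Myc targets 0 passed with a positive and 0 with a negative difference by limma, 9 had an unadjusted p under 0.05, and the median was -0.30.

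Secreted signals between cells went in both directions. Of 37 chemokines and cytokines, 3 were positive and 3 negative, against 1.97% and 1.0% of all genes, and the median was -0.16. Cxcl14, a chemokine of skin and other epithelia, read 7.44, 7.35 and 7.48 on day 4 and 7.50, 7.51 and 7.54 on day 8 with SKO. Without SKO Cxcl14 read 6.80, 6.39 and 6.64 on day 4 and 8.19, 8.43 and 8.44 on day 8. It did not pass with SKO and crossed from below to above in the other arm, a difference of -1.65 ± 0.18 (SE, adjusted p = 0.00261). Il33, an alarm cytokine kept in the nucleus, rose by 1.35 without SKO and differed by -1.47, and Tnfsf11 (RANKL), which drives osteoclasts, rose in both arms and differed by -0.72. Tslp and Ccl11 (eotaxin) rose with SKO by 0.63 and 1.04 and differed by 0.93 and 0.82. The calls of Tnfsf11 (any pair, adjusted p up to 0.147, and 0.117 in the paired fit), Tslp (any pair, adjusted p up to 0.156, and 0.12 in the paired fit) and Ccl11 (any pair but cluster B without SKO, adjusted p up to 0.148, and 0.101 in the paired fit) were lost with 1 array left out.

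Of 32 genes of mesenchymal identity, 5 were negative and 2 positive, and the median was -0.15. N-cadherin (Cdh2), the cadherin of mesenchymal cells, read 7.03, 7.22 and 7.02 on day 4 and 6.46, 6.41 and 6.10 on day 8 with SKO. Without SKO Cdh2 read 7.53, 7.55 and 7.50 on day 4 and 7.37, 7.59 and 7.70 on day 8. It fell by 0.76 with SKO, with a difference of -0.79 ± 0.16 (SE, adjusted p = 0.0386), while E-cadherin above rose there. Cdh11, a cadherin of bone and synovial fibroblasts, and Fap, a surface protease of activated fibroblasts, rose without SKO by 0.56 and 0.82, and the differences were -0.71 and -1.03. Tbx18, a transcription factor of mesenchyme around vessels and heart, fell by 0.60 without SKO and differed by 1.01. With 1 array left out the calls of Cdh2 (any pair, adjusted p up to 0.133, and 0.112 in the paired fit), Cdh11 (any pair, adjusted p up to 0.106, and 0.0902 in the paired fit), Fap (blank or cluster C with SKO, adjusted p up to 0.0694) and Tbx18 (blank or cluster C with SKO or blank or cluster B without SKO, adjusted p up to 0.0575) were lost.

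Imprinted genes, of which 1 parental copy is silent, held 4 negative and 1 positive members among 24, and the median was -0.13. Beside Plagl1, Igf2 and Peg10, which are given above, Mest, of the hydrolase family, read 8.69, 8.75 and 8.85 on day 4 and 8.56, 8.53 and 8.39 on day 8 with SKO. Without SKO Mest read 9.75, 9.80 and 10.09 on day 4 and 10.82, 10.76 and 10.76 on day 8. It was higher without SKO on every array and the gap widened, a difference of -1.17 ± 0.17 (SE, adjusted p = 0.00879). Dio3, which inactivates thyroid hormone, rose by 0.83 without SKO and differed by -1.18, a call lost with 1 array left out (any pair but cluster B without SKO, adjusted p up to 0.151, and 0.0915 in the paired fit).

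Of 31 genes of glutathione metabolism and Nrf2 targets, which defend cells against oxidants, 4 were positive and 0 negative, and the median was 0.26. Slc7a11, which imports cystine for glutathione, read 6.27, 6.79 and 6.46 on day 4 and 7.73, 7.83 and 7.73 on day 8 with SKO. Without SKO Slc7a11 read 3.61, 3.86 and 3.84 on day 4 and 3.97, 4.27 and 3.93 on day 8. All values with SKO were above all values without, and the difference was 0.97 ± 0.17 (SE, adjusted p = 0.0188). The glutathione transferases Gstm3, Gstm1 and Gsta4 rose with SKO by 0.76, 0.81 and 0.84, and the differences were 0.81, 0.78 and 0.72. Gstm genes have close copies, so Gstm3 and Gstm1 are uncertain. The calls of Slc7a11 (blank or cluster C with SKO or blank or cluster C without SKO, adjusted p up to 0.0771, and 0.0596 in the paired fit), Gstm3 (any pair, adjusted p up to 0.119, and 0.09 in the paired fit), Gstm1 (any pair, adjusted p up to 0.146, and 0.0893 in the paired fit) and Gsta4 (any pair, adjusted p up to 0.108, and 0.0902 in the paired fit) were lost with 1 array left out.

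Of 28 complement and acute-phase genes, 4 were positive and 0 negative, with a median of 0.10, and Saa3 was the largest. Mt1, a metallothionein that binds zinc, rose by 0.78 with SKO and differed by 1.01. C1s1, a protease of the complement C1 complex, rose in both arms, by 1.84 with SKO and 1.08 without, and differed by 0.77. Ceruloplasmin (Cp) passed in neither arm alone and differed by 0.70. Gap43, a growth cone protein and the 1 member of 22 neural genes that passed, fell by 1.10 with SKO, from 8.51, 8.51 and 8.21 on day 4 to 7.37, 7.26 and 7.29 on day 8. Without SKO Gap43 lay between 7.61 and 7.79, and the difference was -1.15 ± 0.15 (SE, adjusted p = 0.00574). Mmp3 (stromelysin), a matrix protease, and Ctsk (cathepsin K), which digests bone collagen, rose without SKO by 1.14 and 0.54 and were the 2 members of 27 matrix proteases and inhibitors that passed, at -1.04 and -0.83. With 1 array left out the calls of C1s1 (any pair but blank without SKO, adjusted p up to 0.0929, and 0.0893 in the paired fit), Cp (any pair, adjusted p up to 0.152, and 0.113 in the paired fit), Mmp3 (cluster B or cluster C with SKO or blank or cluster B without SKO, adjusted p up to 0.11, and 0.0766 in the paired fit) and Ctsk (any pair but cluster B with SKO, adjusted p up to 0.126, and 0.0848 in the paired fit) were lost.

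In a further 7 lists no gene passed by limma in either direction. These held 35 genes of Hox and limb position (median 0.14, 6 at an unadjusted p under 0.05), 30 genes of cholesterol and fatty acid synthesis (median 0.08, 3 at an unadjusted p under 0.05) and 24 ribosomal protein genes (median -0.0033, 1 at an unadjusted p under 0.05). The others held 24 genes of endothelium (median -0.01, 4 at an unadjusted p under 0.05), 32 genes of mitochondrial respiration (median -0.03, 5 at an unadjusted p under 0.05), 25 genes of skeletal and cardiac muscle (median -0.11, 6 at an unadjusted p under 0.05) and 28 genes of smooth muscle (median -0.13, 2 at an unadjusted p under 0.05). Their medians are set beside -0.02 for all genes. Over all genes 2.97% passed, a share at which lists this small can hold no call, so nothing is drawn from its absence.

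Of the delivered factors none passed. Pou5f1 had a difference of 0.01 ± 0.18 (SE, adjusted p = 0.989) and Klf4 of 0.07 ± 0.15 (SE, adjusted p = 0.869), both of which turn below 0 in the fit without cluster B. Klf4 read 8.70, 8.67 and 8.67 on day 4 and 8.63, 8.91 and 8.63 on day 8 with SKO. Without SKO Klf4 read 7.16, 7.14 and 6.92 on day 4 and 7.03, 7.06 and 7.06 on day 8. Sox2 read 5.47, 5.43 and 5.34 on day 4 and 5.77, 6.04 and 7.55 on day 8 with SKO, with differences of -0.10, 0.37 and 2.05 for the 3 viruses and an adjusted p of 0.388. Whether the probe sets read the delivered copies as well as the cell's own genes was not examined. Myc, a growth-promoting transcription factor that was not delivered, was higher with SKO on every array. It rose by 0.65 without SKO and read 8.26, 8.37 and 8.28 on day 4 and 8.09, 7.98 and 8.05 on day 8 with it, so the gap narrowed, at a difference of -0.91 ± 0.16 (SE, adjusted p = 0.0205). The Myc call was lost with 1 array left out (any pair but cluster C without SKO, adjusted p up to 0.0749, and 0.0692 in the paired fit).

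Immediate early genes, which respond to serum and stress within minutes, included 4 positive and 1 negative call among 30 (Myc being the negative one), with a median of 0.14. Btg2, an antiproliferative gene also induced by p53, read 6.69, 6.80 and 6.79 on day 4 and 6.73, 6.74 and 6.78 on day 8 with SKO. Without SKO Btg2 read 7.97, 7.98 and 7.97 on day 4 and 6.38, 6.48 and 6.36 on day 8. It was higher without SKO on every day 4 array and lower on every day 8 array, a difference of 1.56 ± 0.13 (SE, adjusted p = 0.00075). Fos fell in both arms, by 0.56 with SKO and 1.44 without, and Ier2 and the signal inhibitor Spry2 fell without SKO by 1.04 and 0.83. These 3 calls were lost with 1 array left out: Fos (any pair but cluster B without SKO, adjusted p up to 0.13, and 0.0755 in the paired fit), Ier2 (any pair but cluster B without SKO, adjusted p up to 0.134, and 0.0969 in the paired fit) and Spry2 (blank or cluster C with SKO or blank or cluster C without SKO, adjusted p up to 0.0618, and 0.0513 in the paired fit).

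Of 297 microRNA genes with a probe set, 7 (2.36%) passed, a share near the 2.97% of all genes. The naming rule leaves out small RNA genes, so these were picked with their values in view. Of these, 4 (Mir323, Mir329, Mir376b and Mir377) lie on chromosome 12 and were all positive. Of 47 microRNA genes measured on this chromosome the other 43 did not pass (median difference of the 47, 0.092, with 28 above 0). Within the span of the 4 on chromosome 12 another 18 measured microRNA genes did not pass, and 15 of the 22 there had a difference above 0. The place was read off after the values were seen, so nothing is drawn from it. Mature sequences of these 4 are shown with the seed, bases 2 to 8, by which a microRNA pairs with its targets, in capitals. They are from RefSeq, build GRCm38.p6, on the plus strand at chr12:109712558-109712578, chr12:109713541-109713562, chr12:109723508-109723528 and chr12:109740553-109740574.
mmu-miR-323-3p: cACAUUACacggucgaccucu
mmu-miR-329-3p: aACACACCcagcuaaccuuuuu
mmu-miR-376b-3p: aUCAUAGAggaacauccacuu
mmu-miR-377-3p: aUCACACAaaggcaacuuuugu
The 4 seeds shown are those of the 3p forms and differ from each other. The 5p forms are not shown, and the seeds of miR-329-5p and miR-377-5p differ from each other only in the last base. The probe sets are of the microRNA genes and do not tell mature arms apart. Mir377 read 5.29, 5.09 and 5.39 on day 4 and 3.22, 3.58 and 3.49 on day 8 without SKO, and 3.88, 3.74 and 3.55 on day 4 and 3.40, 3.39 and 2.99 on day 8 with SKO. The 3 day 4 arrays without SKO were above the 9 others, and the difference was 1.37 ± 0.17 (SE, adjusted p = 0.00547). Mir329 and Mir376b fell by 0.69 and 0.71 without SKO, and Mir323 by 0.44, for differences of 0.74, 0.75 and 0.71. Mir376b lay between 1.54 and 2.62 on the 12 arrays, below every lower quartile. Mir146b, a microRNA of inflammation, was the negative one at -0.93, and Mir125b-1 and Mir143 were positive at 0.71 and 0.79. Leaving out 1 array ended the call for Mir125b-1 (any pair, adjusted p up to 0.125, and 0.0928 in the paired fit), Mir143 (any pair, adjusted p up to 0.135, and 0.0936 in the paired fit), Mir146b (any pair but cluster B with SKO, adjusted p up to 0.135, and 0.0798 in the paired fit), Mir323 (any pair, adjusted p up to 0.146, and 0.115 in the paired fit), Mir329 (any pair, adjusted p up to 0.148, and 0.0915 in the paired fit) and Mir376b (any pair, adjusted p up to 0.147, and 0.0902 in the paired fit).

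Marker genes of other cell types were read as sums of linear values on each array. The 5 pluripotent cell markers summed to 6.48 to 6.63 (log2) on day 4 and 8.08 to 11.1 on day 8 with SKO, and to 6.47 to 6.76 without SKO on both days, with 3 of 5 passing. The 4 epithelial markers summed to 7.55 to 8.03 and 9.07 to 9.96 with SKO, and 7.04 to 7.42 without, with 3 of 4 passing. The 7 fibroblast markers summed to 13.5 to 13.8 and then 13.3 to 13.5 with SKO, and 14.3 to 14.4 without, so markers of the labelled cell type were bright in both arms, with 1 of 7 positive and 1 negative. The 8 macrophage markers summed to 7.74 to 8.06 with SKO and went from 8.19 to 8.46 on day 4 to 8.75 to 8.95 on day 8 without SKO, and none of the 8 passed (3 at an unadjusted p under 0.05), while 1 was below the lower quartile on every array. The 6 endothelial markers summed to 8.48 to 8.65 and 8.89 to 9.0 with SKO, and 6.51 to 6.86 without, and none passed (1 at an unadjusted p under 0.05). Of 5 adipocyte markers 1 was negative (Lpl, -0.68, lost without any pair, adjusted p up to 0.131, and 0.108 in the paired fit), with sums of 7.03 to 7.12 on day 4 and 7.98 to 8.10 on day 8 without SKO, and 6.67 to 7.24 with SKO. Smooth muscle markers summed to 11.1 to 11.4 and 10.8 to 10.99 with SKO and 12.3 to 12.5 without, and skeletal muscle and neural markers lay between 6.71 and 7.81 on all arrays, with none of these passing. The part of these cell types in the differences was not tested.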

How the data were processed

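RNA of 12 samples, 1 array each, was measured on a mouse whole-transcript array. The deposited values are log2 intensities per probe set; the authors' normalization was RMA in Partek, per the submitters' processing notes, with no version or setting given. RMA puts arrays on 1 distribution, so a shift shared by all genes would not show. Of 28853 probe sets, 21789 were paired with 1 gene by the platform annotation, 1621 with several and 5443 with none, and the brightest probe set of each of 19938 genes was kept. Of the genes, 999 had several probe sets.

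The fit used limma 3.58.1 in R 4.3.3, with terms for arm, day, virus, arm by day and arm by virus, which left 4 residual degrees of freedom. The arm by day term is the mean of the 3 differences. Its error comes from the spread between viruses, moderated toward a variance shared by all genes (4.94 prior degrees of freedom). P-values were adjusted by Benjamini-Hochberg over all genes, with a threshold of 0.05. Day changes within an arm came from the same fit. The script was tested on simulated data. Tables and figures were made in Python 3.11.15 with pandas 2.3.3, numpy 2.4.6 and matplotlib 3.10.9.

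The comparison and the 39 lists (1141 of 1253 list genes measured) were chosen with earlier results of these data known, so list counts support nothing beyond description. Genes were named by a rule: the 12 largest positive and 12 largest negative differences past the threshold with 1 sign in all viruses and a mean above the median of all values, the 8 largest of each reversal class, and up to 4 members at either end of each of 12 lists, of which those near 0 that missed the threshold are not given. Predicted genes, receptors of smell and taste and small RNA genes were left out. Further list members that passed, members of the other lists, microRNA genes and the genes that missed the threshold (except in the mitosis list) were named after their values were seen. Alternatives covered normalization, a filter on dim genes, the probe set rule, the model, a minimum change and the leaving out of arrays or viruses.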

Additional observations from a re-analysis of the deposited data

Results flagged for a closer look

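The day change differed between the arms, by the arm by day term, for 392 genes in the positive and 200 in the negative direction, and for 28 and 12 of these the arms changed in opposite directions. The difference itself was tested in limma for each reversal gene named. Among genes that rose with SKO and fell without, the difference was 3.57 for Enpp3, 3.02 for Angptl7, 2.05 for Itga3, 2.03 for Lama5, 1.94 for Krt7, 1.93 for Spint2, 1.81 for Peg10 and 1.67 for Rab27a. Among genes that fell with SKO and rose without, the difference was -1.87 for Plagl1, -1.63 for Abi3bp, -1.54 for Chsy3, -1.47 for Cdh18, -1.47 for Fst, -1.27 for Efhd1, -1.21 for Adamts3 and -1.20 for Plcl1. Genes were named only if the difference had 1 sign in 3 of 3 viruses, so that sign adds no support.

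Probe sets that the annotation pairs with several genes or with none were not part of the comparison. When every probe set was tested, 44 of these 7064 (0.623%) passed, 33 in the positive and 11 in the negative direction. Over all 28853 probe sets of that test, 310 were positive and 182 negative, a higher share than among these.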

How the results depend on the processing

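The labels carry no replicate numbers; the fit pairs day 4 with day 8 within each arm and virus, and the virus by day term also pairs the arms by virus. Positive and negative genes numbered 783 and 438 with a filter on dim genes, 871 and 475 with a trended, robust variance, 155 and 81 with a virus by day term, 130 and 69 with a minimum change of 1.2-fold, 85 and 48 without the 4 blank arrays, 76 and 49 without cluster B and 62 and 28 without cluster C. With SKO, genes that fell numbered 1126 with equal array medians, 1305 with the dim filter, 1333 with the trended variance and 379 with the virus by day term; genes that rose and fell numbered 361 and 104 at 1.2-fold, 411 and 136 without blank, 381 and 88 without cluster B and 452 and 237 without cluster C. Without SKO, 1704 fell with the dim filter, and rises and falls numbered 1220 and 1701 with the trended variance, 464 and 405 with the virus by day term, 209 and 96 at 1.2-fold, 205 and 83 without blank, 250 and 134 without cluster B and 273 and 155 without cluster C. Reversals (rose, then fell with SKO) numbered 84 and 40 with the dim filter, 74 and 37 with the trended variance, 14 and 2 with the virus by day term, 7 and 0 at 1.2-fold, 2 and 1 without blank, 6 and 0 without cluster B and 9 and 2 without cluster C. The cause of these moves was not tested beyond the fewer genes or samples that some settings use.

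With 1 array left out, 138 to 200 positive and 92 to 115 negative genes passed. The counts were 467 to 976 rises and 157 to 635 falls with SKO, 313 to 746 and 213 to 826 without SKO, and 12 to 16 and 1 to 6 reversals. List medians ranged from 0.58 to 0.77 for epithelial identity, 0.23 to 0.34 for keratins, 0.14 to 0.43 for pluripotency, 0.35 to 0.48 for glycolysis and hypoxia, -0.33 to -0.20 for matrix, -0.19 to -0.09 for collagens, -0.52 to -0.25 for cartilage and bone, -0.34 to -0.25 for IGF and PDGF, -0.18 to -0.09 for Wnt, 0.61 to 1.18 for interferon, -0.62 to -0.40 for G1/S and -0.42 to -0.10 for G2/M. The dim filter moved the epithelial median to 1.13, keratins to 0.61 and cartilage and bone to -0.54. Dim genes can pass this filter through a rise in 1 arm, so part of these moves may come from the filter itself. Leaving out cluster B moved cartilage and bone to -0.52 and IGF and PDGF to -0.22. Pou5f1 turned to -0.014 with equal array medians and -0.112 without cluster B, and lay between -0.103 and 0.173 with 1 array left out; Klf4 turned to -0.056 without cluster B, and lay between -0.030 and 0.146 with 1 array left out. Of 78 named genes past the threshold, 50 passed with every array left out in turn and 28 did not. The calls lost among the 78 numbered 40 without cluster C, 37 without cluster B, 27 without blank, 24 at 1.2-fold and 18 with the virus by day term, and at most 3 with each other normalization, probe set rule or variance model. Each combination of arm, virus and day had 1 array, which limits the precision, and small changes of dim genes are the least certain.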
